A study of Rattus norvegicus with 12 samples.

Results

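The antioxidant and glutathione genes are a list of 47 genes that defend cells against oxidants and electrophiles. They were chosen by name, with earlier results of these data known, and 45 of them were measured among 14324 named genes on Affymetrix arrays. A member counted as measured where at least 1 probe set (the group of probes for a transcript) carried exactly 1 gene symbol and that symbol was on the list, and Mgst3 and Pgd were not analysed here. The cells were neonatal heart muscle cells of Sprague-Dawley rats aged 2 days, all from one litter, isolated by enzymatic digestion and cultured for 3 days before treatment. Treatment with DEHP, the phthalate ester that softens polyvinyl chloride plastics, then lasted 3 days. The doses were 1, 10 and 50 µg/ml in 0.1% dimethyl sulphoxide (DMSO), and the vehicle group received 0.1% DMSO alone. There were 3 arrays per group and 12 in all, described as biological replicates. Because a single litter supplied the cells, p-values here speak only of variation among its cultures.

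The transcription factor NRF2 (gene Nfe2l2) is held in the cytoplasm and marked for degradation by its sensor KEAP1. Electrophiles and oxidants modify KEAP1, and NRF2 then enters the nucleus, pairs with small MAF proteins and binds antioxidant response elements of its target genes. These targets make glutathione, conjugate it to foreign compounds, supply NADPH, reduce thioredoxin and peroxiredoxins, and break down haem. In heart muscle, whose mitochondria release superoxide, superoxide dismutases, catalase, peroxiredoxins and glutathione peroxidases form the enzymatic defence. The comparison of each dose with the vehicle, and of the doses with each other, follows the dose dependence named in the series title.

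The deposited value of a probe set is a ratio of each array to the median of the 12 arrays, so values of one gene can be compared between arrays but levels cannot be compared between genes. Values above 1 were taken to mean more signal than the median. That direction is an assumption, and all signs below would turn if it were wrong. Values are log2 ratios, differences are treated minus control on the log2 scale with their standard error (SE), and n = 3 arrays per group throughout. A call means an adjusted p (Benjamini-Hochberg over the 14324 genes, limma) under 0.05. Whether heart muscle markers were present at a high level could not be read from ratios. Array medians were close to 0 on all 12 arrays. The 10 µg/ml replicate 2 array had an interquartile range over genes of 0.17, against 0.08 and 0.09 for the others of its group. The 50 µg/ml arrays had ranges of 0.13, 0.19 and 0.14, and 50 µg/ml replicate 2 had the widest of the 12.

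At 50 µg/ml 15 of the 45 measured members rose and 3 fell, and 27 were not called. The called share was 40% of the members, against 17.6% of all genes (8.75% higher and 8.84% lower). The median difference of the members was 0.15, against 0.02 for all genes. The arrays of both groups did not overlap for 30 members, 23 of them higher and 7 lower, a property that 36% of all genes shared (19.5% higher and 16.5% lower). Glutathione transferases held the most calls of any role, with 7 of 8 higher. Of 17 members listed here as NRF2 targets 4 rose and 0 fell. The 4 were Hmox1, Srxn1, Txnrd1 and Ftl1. That list did not hold the 7 transferases that rose, so these counts do not set transferases apart from NRF2 targets. The NRF2 target count was 2 without vehicle replicate 3 and 2 without 50 µg/ml replicate 3. The transferase count was 5 without vehicle replicate 1 and 5 without 50 µg/ml replicate 2, all higher. Without 50 µg/ml replicate 3 it was 6 higher and 1 lower.

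**Figure D1:**
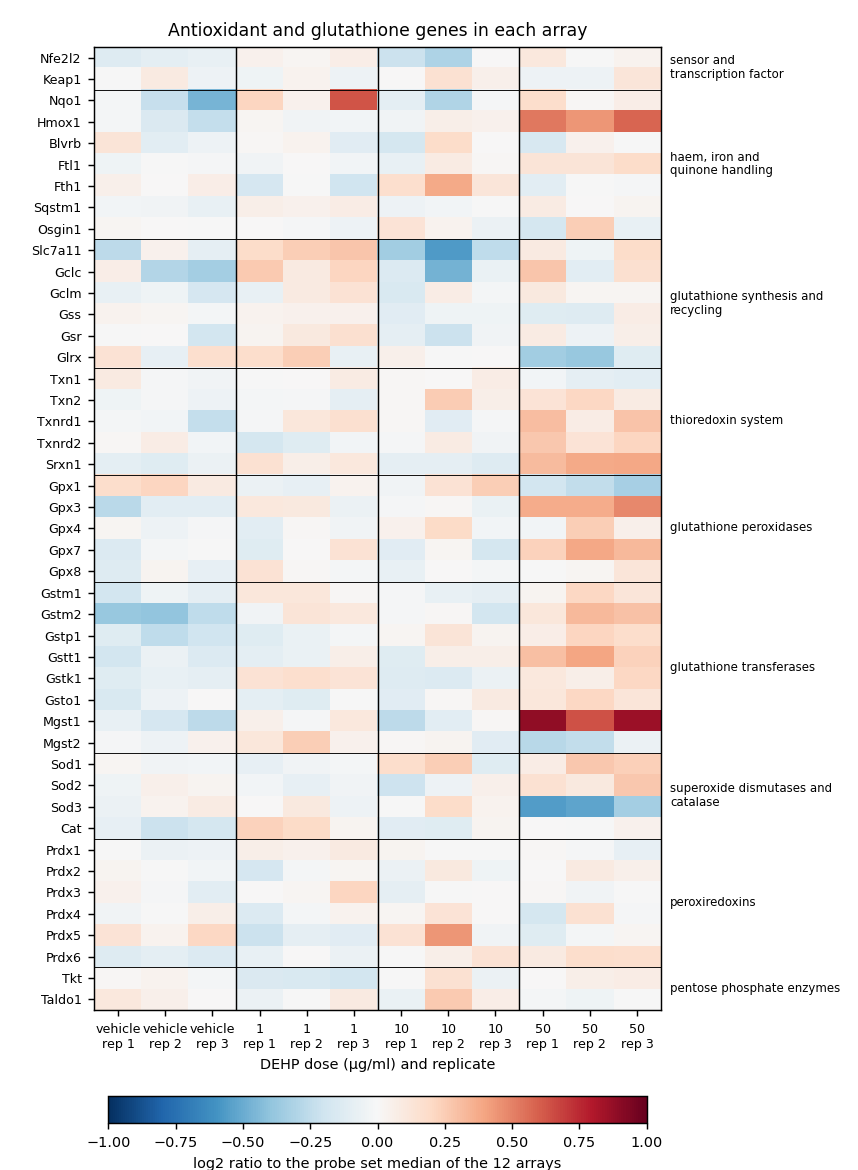
Heat map of the log2 ratio of the 45 measured members (rows, grouped by role) in each of the 12 arrays (columns, by DEHP dose in µg/ml and replicate). Colours run from -1 to 1, and the darkest red cells are those of Mgst1 at 50 µg/ml (0.89, 0.64 and 0.86).

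In these bulk cultures, fewer cells of a type and less RNA per cell cannot be told apart. Markers of macrophages were lower at 50 µg/ml in 23 of 25 measured, with a median difference of -1.02. The median macrophage log2 ratio of an array lay between 0.16 and 0.26 with the vehicle and between -0.91 and -0.77 at 50 µg/ml. Of 18 heart muscle markers 10 were higher and 1 lower at 50 µg/ml (median 0.22), and of 10 endothelial markers 5 were higher and 1 lower (median 0.25). Fibroblast markers had 0 higher and 3 lower of 13, and smooth muscle and pericyte markers 3 higher and 4 lower of 9. The part of these cell types in the results was not tested.

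Glutathione transferases attach glutathione to electrophiles and lipid peroxidation products. Mgst1, the microsomal transferase of the endoplasmic reticulum and mitochondrial outer membrane, gave -0.07, -0.17 and -0.26 in the vehicle arrays and 0.89, 0.64 and 0.86 at 50 µg/ml. At 1 µg/ml its arrays stood at 0.05, -0.01 and 0.11, and at 10 µg/ml at -0.27, -0.10 and 0.01. The 50 µg/ml arrays lay far above the other 9, and those at 1 µg/ml lay just above the vehicle without overlap (0.22 ± 0.08, adjusted p = 0.154, not called). The rise over the vehicle at 50 µg/ml was 0.96 ± 0.08 (1.95-fold, adjusted p = 6.29e-06). The 50 µg/ml arrays exceeded those at 10 µg/ml by 0.92 ± 0.08 and those at 1 µg/ml by 0.74 ± 0.08. Of the 45 members, Mgst1 had the largest difference at 50 µg/ml, where macrophage markers had the median of -1.02 given above.

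Gstm2, a cytosolic transferase of the mu class, was lowest in the vehicle arrays, at -0.38, -0.40 and -0.26. It stood at -0.04, 0.13 and 0.11 at 1 µg/ml, at -0.01, 0.01 and -0.18 at 10 µg/ml and at 0.11, 0.32 and 0.30 at 50 µg/ml. No treated array at any dose overlapped with the vehicle arrays. The rise was 0.59 ± 0.07 at 50 µg/ml (adjusted p = 0.000126) and 0.41 ± 0.07 at 1 µg/ml (adjusted p = 0.0112), while the difference of 0.28 ± 0.07 at 10 µg/ml was not called (adjusted p = 0.471). The call at 1 µg/ml was lost without vehicle replicate 1 (0.39, adjusted p = 0.0514) and without vehicle replicate 2 (0.38, adjusted p = 0.0512). Gstm1, of the same class, gave -0.18, -0.04 and -0.09 with the vehicle and 0.11, 0.11 and 0.01 at 1 µg/ml. Its arrays were at -0.01, -0.08 and -0.09 at 10 µg/ml and at 0.03, 0.21 and 0.12 at 50 µg/ml. Its rise at 50 µg/ml was 0.22 ± 0.06 (adjusted p = 0.0165), and it was not called without vehicle replicate 1 (0.18) or 50 µg/ml replicate 2 (0.18). The mu class genes are similar in sequence and the probes were not examined here, so how far one probe set also reads its relatives is unknown.

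Gstt1, of the theta class, gave -0.19, -0.06 and -0.14 with the vehicle, -0.10, -0.07 and 0.06 at 1 µg/ml, -0.12, 0.06 and 0.06 at 10 µg/ml and 0.30, 0.39 and 0.23 at 50 µg/ml. Its 50 µg/ml arrays lay above the 9 others, and the rise was 0.43 ± 0.07 (adjusted p = 0.000567). Gstp1, the pi class enzyme, stood at -0.12, -0.25 and -0.20 with the vehicle and at -0.12, -0.07 and -0.02 at 1 µg/ml. At 10 µg/ml it was at 0.02, 0.13 and 0.03 and at 50 µg/ml at 0.07, 0.22 and 0.18. Both upper doses lay above the vehicle without overlap, with a called rise of 0.34 ± 0.06 at 50 µg/ml (adjusted p = 0.00102) and an uncalled difference of 0.25 ± 0.06 at 10 µg/ml (adjusted p = 0.424).

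Gstk1, the kappa class enzyme of mitochondria and peroxisomes, gave -0.12, -0.08 and -0.09 with the vehicle, 0.14, 0.17 and 0.14 at 1 µg/ml, -0.13, -0.14 and -0.06 at 10 µg/ml and 0.10, 0.06 and 0.20 at 50 µg/ml. The lowest and the highest dose thus lay above the vehicle, while of the 10 µg/ml arrays 2 were just below the vehicle arrays and 1 just above them. It rose by 0.25 ± 0.05 at 1 µg/ml (adjusted p = 0.0152) and by 0.22 ± 0.05 at 50 µg/ml (adjusted p = 0.0063). Its call at 1 µg/ml was lost without vehicle replicate 1 (0.23), vehicle replicate 3 (0.25) or 1 µg/ml replicate 1 (0.25). The omega class enzyme Gsto1 rose by 0.21 ± 0.06 at 50 µg/ml (adjusted p = 0.0325). That call was lost without vehicle replicate 1 (0.17) or 2 (0.22) and without 50 µg/ml replicate 1 (0.23), 2 (0.18) or 3 (0.23), and also after a repeated quantile normalization (0.22). Mgst2, which also makes leukotriene C4, was the 1 measured transferase not called against the vehicle, at -0.18 ± 0.07 (adjusted p = 0.0904). It was called lower without 50 µg/ml replicate 3 (-0.25, adjusted p = 0.0294), and it was lower at 50 than at 1 µg/ml by -0.33 ± 0.07 (adjusted p = 0.00491).

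**Figure D2:**
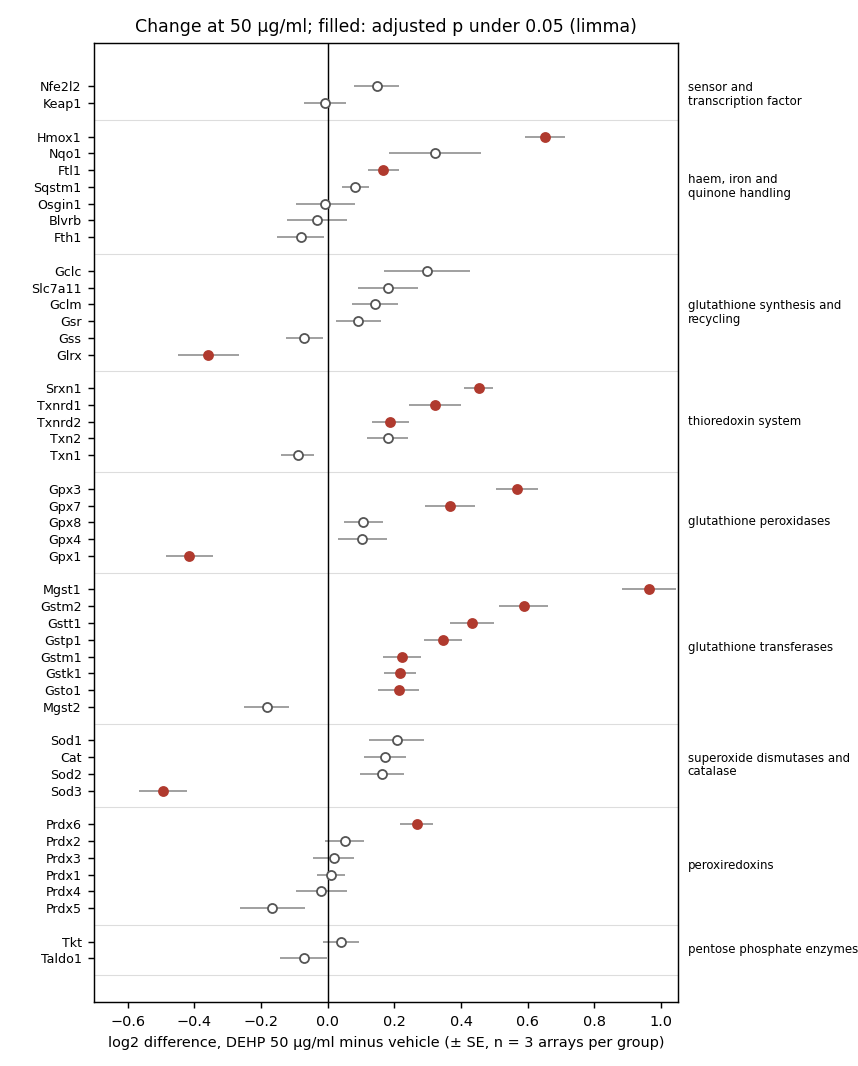
Difference between 50 µg/ml DEHP and the vehicle for each measured member (log2, horizontal axis; bars are the SE, n = 3 arrays per group), grouped by role. Filled points have an adjusted p under 0.05: 7 of 8 glutathione transferases lie to the right of 0, and Sod3, Gpx1 and Glrx are the filled points to the left.

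Hmox1, the inducible haem oxygenase, was at -0.02, -0.14 and -0.24 with the vehicle, 0.02, -0.04 and -0.03 at 1 µg/ml, -0.04, 0.06 and 0.05 at 10 µg/ml and 0.53, 0.44 and 0.58 at 50 µg/ml. Its 50 µg/ml arrays stood above the other 9. The rise was 0.65 ± 0.06 over the vehicle (adjusted p = 1.11e-05), 0.49 ± 0.06 over 10 µg/ml (adjusted p = 0.000134) and 0.53 ± 0.06 over 1 µg/ml (adjusted p = 6.48e-05). Among the iron storage subunits, the ferritin light chain Ftl1 rose by 0.17 ± 0.05 at 50 µg/ml (adjusted p = 0.0264), from arrays of -0.04, -0.002 and -0.009 to 0.13, 0.13 and 0.19. Its 6 probe sets gave differences of 0.14 to 0.19. The Ftl1 call was lost without vehicle replicate 1 (0.15), 2 (0.17) or 3 (0.17) and without 50 µg/ml replicate 3 (0.15), and also after a repeated quantile normalization (0.14). The ferritin heavy chain Fth1 was not called, at -0.08 ± 0.07 (95% interval -0.23 to 0.07). The biliverdin reductase Blvrb (-0.03), the autophagy adaptor Sqstm1, which binds KEAP1 (0.08), and Osgin1, an oxidative stress induced growth inhibitor (-0.01), were not called either.

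Nqo1, the quinone reductase often used as a readout of NRF2, varied widely within groups. Its vehicle arrays were at -0.02, -0.23 and -0.47, its 1 µg/ml arrays at 0.22, 0.04 and 0.63, its 10 µg/ml arrays at -0.10, -0.30 and -0.01 and its 50 µg/ml arrays at 0.17, 0.01 and 0.06. All arrays at 1 and at 50 µg/ml were above the vehicle arrays, but the difference of 0.53 ± 0.14 at 1 µg/ml narrowly missed the threshold (adjusted p = 0.0500166). At 50 µg/ml the difference was 0.32 ± 0.14 (95% interval 0.02 to 0.62, adjusted p = 0.14). Nfe2l2 itself stood at 0.15 ± 0.07 at 50 µg/ml and Keap1 at -0.01 ± 0.06 (95% interval -0.14 to 0.13), and neither was called against the vehicle at any dose. Messenger RNA of these genes does not report the activity of NRF2, which is set mainly through the stability of the protein.

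The thioredoxin system reduces peroxiredoxins and other oxidised proteins, and 3 of its 5 members rose at 50 µg/ml. Srxn1, sulfiredoxin, which repairs overoxidised peroxiredoxins, was at -0.10, -0.12 and -0.06 with the vehicle and at 0.31, 0.38 and 0.39 at 50 µg/ml. At 1 µg/ml it was at 0.15, 0.06 and 0.11 and at 10 µg/ml at -0.09, -0.09 and -0.13. The arrays at 1 and 50 µg/ml were each apart from the vehicle and from each other, whereas those at 10 µg/ml ran alongside the vehicle. Srxn1 rose by 0.45 ± 0.04 at 50 µg/ml (adjusted p = 1.63e-05) and by 0.20 ± 0.04 at 1 µg/ml (adjusted p = 0.0275), and it was lower at 10 than at 1 µg/ml by -0.21 ± 0.04 (adjusted p = 0.0107). The call at 1 µg/ml was lost without vehicle replicate 1 (0.19), 2 (0.18) or 3 (0.21) and without 1 µg/ml replicate 1 (0.17) or 3 (0.20).

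Txnrd1, the cytosolic thioredoxin reductase, gave -0.02, -0.03 and -0.24 with the vehicle, -0.01, 0.11 and 0.16 at 1 µg/ml, 0.01, -0.11 and -0.01 at 10 µg/ml and 0.31, 0.08 and 0.29 at 50 µg/ml. It rose by 0.32 ± 0.08 at 50 µg/ml (adjusted p = 0.012), which was not called without vehicle replicate 3 (0.25) or 50 µg/ml replicate 3 (0.29). The mitochondrial reductase Txnrd2 rose by 0.19 ± 0.06 (adjusted p = 0.0336), a call lost without vehicle replicate 1 (0.18) or 3 (0.16) and without 50 µg/ml replicate 1 (0.16) or 3 (0.18). A repeated quantile normalization also ended the Txnrd2 call (0.13). The thioredoxins Txn1 of the cytosol (-0.09 ± 0.05) and Txn2 of mitochondria (0.18 ± 0.06) were not called, though Txn2 was called without 10 µg/ml replicate 2 (adjusted p = 0.0142). Array weights (adjusted p = 0.0305), the replicate block (adjusted p = 0.0386) and the compared groups alone (adjusted p = 0.0341) also gave a Txn2 call.

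**Figure D3:**
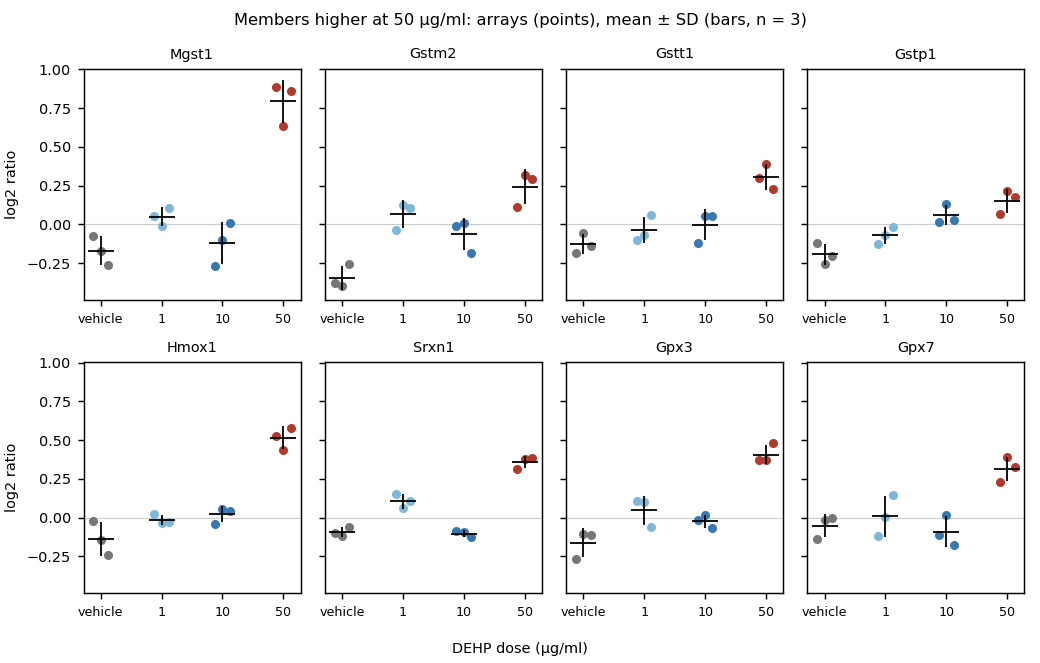
Log2 ratio of each array (points) against DEHP dose (µg/ml) for 8 members called higher at 50 µg/ml, with the mean and SD of the 3 arrays (black). The 50 µg/ml points of Mgst1, Hmox1, Srxn1, Gpx3, Gpx7 and Gstt1 lie above all 9 other points, while Gstm2 is higher than the vehicle at every dose.

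Promoter stretches, chosen with the values known, are printed here for 4 members that rose at 50 µg/ml and for 2 that were not called. RefSeq promoter windows of build GRCr8, 250 bases before to 50 bases after a transcript start, were matched by symbol for 36 of the 45 measured members (39 windows). The core of the antioxidant response element was searched as TGACNNNGC on both strands. The AP-1 site, with which it overlaps where the letters are TGACTCAGC, was searched as TGANTCA, with the middle base left free. The first was in 8 of 39 member windows (20.5%), against 13.7% of 12381 windows of genes measured and 12.1% of 33469 windows of all genes. It was in 3 of 14 windows of the listed NRF2 targets (21.4%) and in 5 of 25 windows of the other members (20.0%). The second was in 6 of 39 (15.4%), against 6.28% of windows of genes measured and 7.33% of all windows. Capitals mark the match to TGACNNNGC, on either strand, in the first 4 lines and to TGANTCA in the last 2. Each stretch lies upstream of its start and is written 5′ to 3′ on the strand of the gene. The last 2 lines are both of members that rose. Upstream matches of Sod2, not called, to TGACNNNGC and of Glrx, which fell, to TGANTCA are not printed. Prdx1, not called, and Gstp1, which rose, also match TGANTCA inside the capitals of their lines.
Gstp1 (chr1:210769728-210769796, minus strand): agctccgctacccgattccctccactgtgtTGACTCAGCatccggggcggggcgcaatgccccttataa
Txnrd1 (chr7:22755944-22756012, minus strand): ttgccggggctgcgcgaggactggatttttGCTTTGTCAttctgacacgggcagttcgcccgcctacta
Gclm (chr2:213031933-213032001, plus strand): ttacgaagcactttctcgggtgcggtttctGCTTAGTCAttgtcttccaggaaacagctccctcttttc
Prdx1 (chr5:135383741-135383809, plus strand): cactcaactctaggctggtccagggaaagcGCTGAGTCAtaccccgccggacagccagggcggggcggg
Srxn1 (chr3:161064720-161064786, plus strand): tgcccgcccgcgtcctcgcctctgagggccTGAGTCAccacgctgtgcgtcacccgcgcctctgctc
Mgst1 (chr4:172760760-172760826, plus strand): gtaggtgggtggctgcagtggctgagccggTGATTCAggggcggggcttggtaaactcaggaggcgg
Of the 8 members with the first motif, 2 rose at 50 µg/ml, Gstp1 and Txnrd1. Gclm (0.14 ± 0.07), Prdx1 (0.01 ± 0.04), Nfe2l2, Sod2, Prdx4 and Prdx5 were not called. Of the 6 with the second, Srxn1, Mgst1, Gstp1 and Gsto1 rose, Glrx fell and Prdx1 was not called. The Mgst1 match was TGATTCA, while the other members matched TGACTCA or TGAGTCA, so the pattern searched is wider than those letters. The Gsto1 match lay after the start. Among all 45 measured members 15 rose and 3 fell. No window was matched for Hmox1, Ftl1, Gstt1 and Prdx6, which rose, or for Sod3, which fell. Fth1, Gsr, Gpx8 and Mgst2, not called, had none either. A match is a description of letters in this window, and elements farther from the start lie outside it. The part of these letters in the changes was not tested.

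Glutathione peroxidases reduce peroxides at the expense of glutathione, and their members moved in opposite directions at 50 µg/ml, with 2 of 5 higher and 1 lower. Gpx3, the secreted peroxidase, was at -0.27, -0.11 and -0.11 with the vehicle, 0.10, 0.10 and -0.06 at 1 µg/ml, -0.02, 0.02 and -0.07 at 10 µg/ml and 0.37, 0.37 and 0.48 at 50 µg/ml. Its vehicle arrays were the lowest and its 50 µg/ml arrays the highest, and the rise was 0.57 ± 0.06 (adjusted p = 4.66e-05). Gpx7, a peroxidase of the endoplasmic reticulum that uses cysteine in place of selenocysteine, was at -0.14, -0.02 and -0.003 with the vehicle and 0.23, 0.39 and 0.32 at 50 µg/ml. Its arrays at 1 µg/ml (-0.12, 0.003 and 0.14) and 10 µg/ml (-0.11, 0.02 and -0.18) spread around those of the vehicle. It rose by 0.37 ± 0.07 at 50 µg/ml (adjusted p = 0.00422). Its relative Gpx8 (0.11 ± 0.06) and the phospholipid peroxidase Gpx4 (0.10 ± 0.07) were not called.

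Gpx1, the main cytosolic glutathione peroxidase and a selenoprotein, was at 0.18, 0.21 and 0.09 with the vehicle and -0.18, -0.25 and -0.33 at 50 µg/ml. At 1 µg/ml it was at -0.06, -0.08 and 0.04 and at 10 µg/ml at -0.04, 0.14 and 0.24. It fell by 0.41 ± 0.07 on the log2 scale at 50 µg/ml (adjusted p = 0.0012), and at 1 µg/ml, where its arrays also lay below the vehicle without overlap, the difference of -0.20 ± 0.07 was not called (adjusted p = 0.139). Sod3, the extracellular superoxide dismutase, gave -0.06, 0.03 and 0.09 with the vehicle and -0.56, -0.53 and -0.34 at 50 µg/ml. It was at 0.003, 0.10 and -0.05 at 1 µg/ml and at -0.003, 0.19 and 0.03 at 10 µg/ml, and only the 50 µg/ml arrays were apart from the vehicle. It fell by 0.49 ± 0.07 against the vehicle (adjusted p = 0.000385) and by 0.55 ± 0.07 against 10 µg/ml (adjusted p = 0.000241). Glrx, glutaredoxin, which removes glutathione from proteins, fell by 0.36 ± 0.09 (adjusted p = 0.0176), from arrays between -0.08 and 0.17 to -0.35, -0.38 and -0.12. The Glrx call was lost without vehicle replicate 1 (-0.33) or 3 (-0.31) and without 50 µg/ml replicate 1 (-0.32) or 2 (-0.31), and also after a repeated quantile normalization (-0.31). These 3 falls came in the arrays in which 23 of 25 macrophage markers were lower, and the part of the macrophage markers in them was not tested.

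**Figure D4:**
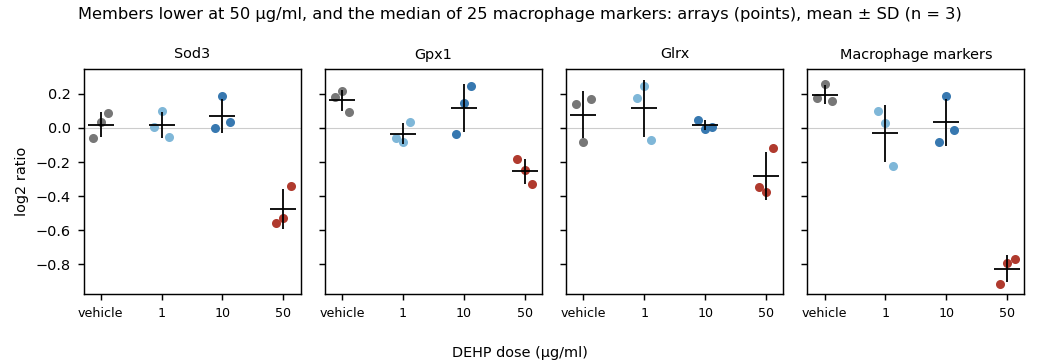
Log2 ratio of each array (points) against DEHP dose (µg/ml) for the 3 members called lower at 50 µg/ml and, in the last panel, the median over 25 macrophage markers in each array, with mean and SD (black, n = 3). All 4 panels have their lowest points at 50 µg/ml, and the macrophage median lies between -0.91 and -0.77 there.

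The other dismutases turn superoxide into hydrogen peroxide in the cytosol (Sod1) and in mitochondria (Sod2), and catalase (Cat) breaks hydrogen peroxide down in peroxisomes. At 50 µg/ml Sod1 (0.21 ± 0.08), Sod2 (0.16 ± 0.07) and Cat (0.17 ± 0.06) were all above the vehicle in every array, and none was called (adjusted p of 0.111, 0.113 and 0.0831). Sod1 was called without 10 µg/ml replicate 3 (adjusted p = 0.0222) and with the compared groups alone (adjusted p = 0.0408). Cat was called at 50 µg/ml after the repeated quantile normalization (0.25, adjusted p = 0.0322) and with the compared groups alone (adjusted p = 0.0451). Cat rose at 1 µg/ml by 0.31 ± 0.06 (adjusted p = 0.019), from -0.08, -0.22 and -0.18 to 0.23, 0.19 and 0.03. That call was lost without vehicle replicate 2 (0.28) or 3 (0.30) and without 1 µg/ml replicate 1 (0.27) or 2 (0.29).

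Peroxiredoxins, which remove hydrogen peroxide with thioredoxin as the usual electron donor, had 1 of 6 members called at 50 µg/ml and a median difference of 0.01. This was Prdx6, the peroxiredoxin that uses glutathione, which rose by 0.27 ± 0.05 (adjusted p = 0.00214). Its arrays went from -0.13, -0.10 and -0.14 with the vehicle through -0.08, 0.01 and -0.06 at 1 µg/ml and -0.01, 0.06 and 0.14 at 10 µg/ml to 0.09, 0.18 and 0.17 at 50 µg/ml. The arrays at each dose lay above the vehicle, and the difference of 0.19 ± 0.05 at 10 µg/ml was not called (adjusted p = 0.494). For the others the 95% intervals at 50 µg/ml were -0.08 to 0.10 for Prdx1, -0.08 to 0.18 for Prdx2, -0.12 to 0.15 for Prdx3, -0.18 to 0.15 for Prdx4 and -0.38 to 0.04 for Prdx5. In the pentose phosphate pathway, which supplies NADPH, Tkt (0.04) and Taldo1 (-0.07) were not called at 50 µg/ml.

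Glutathione is made from cysteine, which enters as cystine through Slc7a11, by the ligase subunits Gclc and Gclm and by the synthase Gss, and it is kept reduced by Gsr. None of these 5 genes was called against the vehicle at 50 µg/ml, with differences of 0.18 ± 0.09 for Slc7a11, 0.30 ± 0.13 for Gclc, 0.14 ± 0.07 for Gclm, -0.07 ± 0.06 for Gss and 0.09 ± 0.07 for Gsr. Gclc was called without vehicle replicate 1 (0.43, adjusted p = 0.0468), with array weights (0.34, adjusted p = 0.0448) and with the replicate block (0.30, adjusted p = 0.0309). Slc7a11 had its largest differences between the lower doses. Its arrays were at -0.26, 0.04 and -0.09 with the vehicle, at 0.18, 0.25 and 0.28 at 1 µg/ml, at -0.35, -0.56 and -0.25 at 10 µg/ml and at 0.09, -0.04 and 0.19 at 50 µg/ml. The arrays at 10 µg/ml were below those at both other doses. The difference between 10 and 1 µg/ml was -0.62 ± 0.09 (adjusted p = 0.00213), or -0.54 without 10 µg/ml replicate 2, and 50 µg/ml exceeded 10 µg/ml by 0.47 ± 0.09 (adjusted p = 0.00373), or 0.38 without that array. Against the vehicle the difference was 0.34 ± 0.09 at 1 µg/ml (adjusted p = 0.0536) and -0.28 ± 0.09 at 10 µg/ml (adjusted p = 0.702).

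At 1 µg/ml 4 of 45 members were called, all higher, which were Gstm2, Gstk1, Srxn1 and Cat, a share of 8.89% against 4.24% of all genes (2.51% higher and 1.74% lower). Arrays of the groups did not overlap for 22 members, 17 of them higher, against 30.8% of all genes (16.7% higher and 14.1% lower). The median difference of the members was 0.08. Their number was 1 without any one of vehicle replicates 1, 2 and 3 or without 1 µg/ml replicate 1, and it was 8 without 10 µg/ml replicate 2, which belongs to neither group but enters the shared spread. Without that array Nqo1 (0.53, adjusted p = 0.0286) and Slc7a11 (0.34, adjusted p = 0.0178) were called higher and Prdx5 (-0.27) and Tkt (-0.17) lower. Nqo1 was also called without 1 µg/ml replicate 2 (0.66) or 10 µg/ml replicate 3, and Slc7a11 without 10 µg/ml replicate 3 or 50 µg/ml replicate 2. The count over all genes, 608, moved in the same omissions, to 176, 200 and 193 without vehicle replicates 1, 2 and 3, to 193, 361 and 206 without 1 µg/ml replicates 1, 2 and 3 and to 1282 without 10 µg/ml replicate 2. In these arrays 3 of 25 macrophage markers and 3 of 10 endothelial markers were lower and 0 of either were higher, with medians of -0.21 and -0.24, and their part was not tested. At 10 µg/ml limma called 0 members, as it called 0% of all genes, while 8 members and 899 of all genes had an unadjusted p under 0.05. The arrays at 10 µg/ml did not overlap with the vehicle for 7 members, 6 of them higher and 1 lower, against 11.2% of all genes (5.01% higher and 6.22% lower). Those with the smallest unadjusted p were Gstp1, Gstm2 and Prdx6, already given.

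Between 10 and 1 µg/ml 8 members were called, 3 higher and 5 lower at 10 µg/ml, or 17.8% against 14% of all genes (4.77% higher and 9.2% lower). Arrays did not overlap for 5 members above and 13 below, against 30.4% of all genes. Slc7a11, Gstk1, Srxn1, Cat and Gclc were lower at 10 µg/ml. Gstk1 differed by -0.26 ± 0.05 (adjusted p = 0.00602), Cat by -0.22 ± 0.06 (adjusted p = 0.0367) and Gclc by -0.42 ± 0.13 (adjusted p = 0.0486). Fth1, Tkt and Prdx5 were higher at 10 µg/ml. Fth1 gave -0.17, -0.01 and -0.20 at 1 µg/ml and 0.17, 0.38 and 0.12 at 10 µg/ml, a difference of 0.35 ± 0.07 (adjusted p = 0.00982) that its 2 probe sets shared. Tkt differed by 0.19 ± 0.05 (adjusted p = 0.0362) and Prdx5 by 0.32 ± 0.10 (adjusted p = 0.0452).

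The calls of Slc7a11, Gstk1, Fth1 and Srxn1 between 10 and 1 µg/ml held whichever single array was left out. Without 10 µg/ml replicate 2, the array of its group with the widest spread, their differences were -0.54, -0.25, 0.27 and -0.21. With only the compared groups fitted, Fth1 (0.35, adjusted p = 0.0583) and Srxn1 (-0.21, adjusted p = 0.0532) lost this call. The call of Cat was lost without vehicle replicate 3, 1 µg/ml replicate 1 or 2, or 10 µg/ml replicate 1 or 2 (-0.22 to -0.18). That of Gclc was lost without vehicle replicate 2 or 3, any 1 µg/ml array, 10 µg/ml replicate 1 or 2, or 50 µg/ml replicate 3 (-0.47 to -0.29). Tkt lost its call without any vehicle or 1 µg/ml array or 10 µg/ml replicate 1 or 2 (0.13 to 0.21). Prdx5 lost its call without any array except 10 µg/ml replicate 3, and its difference was 0.19 without 10 µg/ml replicate 2. The number called was 4 without 1 µg/ml replicate 1 or 10 µg/ml replicate 2. It was 5 without any one of vehicle replicates 2 and 3, 1 µg/ml replicates 2 and 3 and 10 µg/ml replicate 1. The count over all genes, 2001, was 944 without 1 µg/ml replicate 1, 820 without 1 µg/ml replicate 3 and 880 without 10 µg/ml replicate 2.

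**Figure D5:**
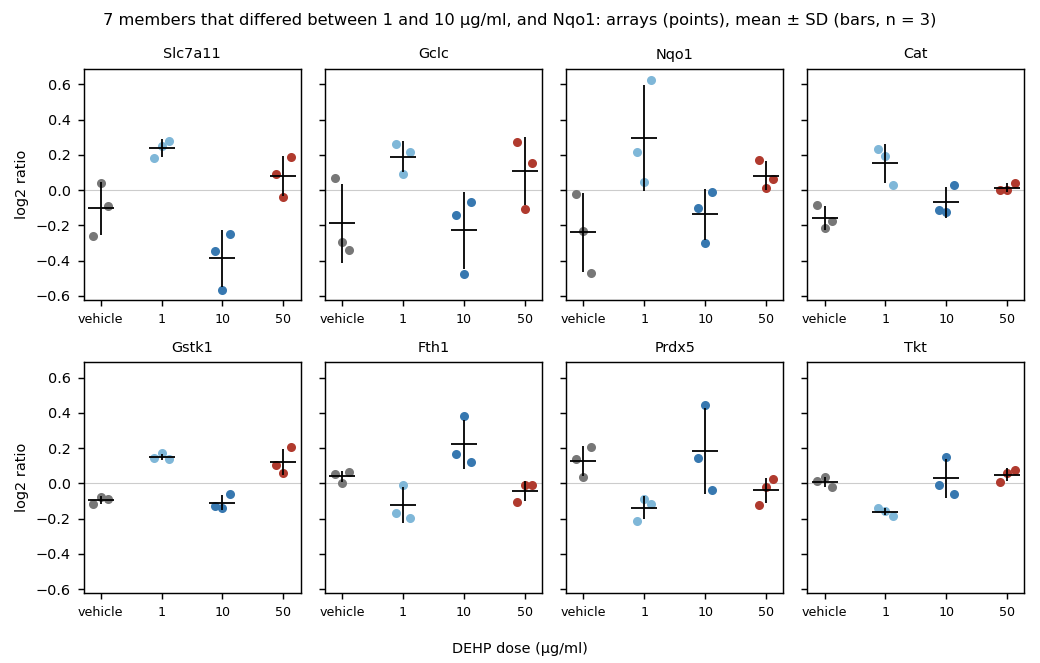
Log2 ratio of each array (points) against DEHP dose (µg/ml) for 7 of the 8 members that differed between 1 and 10 µg/ml, and for Nqo1, with mean and SD (black, n = 3). Slc7a11, Gclc, Nqo1, Cat and Gstk1 have a higher mean at 1 than at 10 µg/ml, and Fth1, Prdx5 and Tkt a lower one.

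Against 10 µg/ml the 50 µg/ml arrays had 13 members higher and 4 lower of 45, or 37.8% against 14.6% of all genes (7.75% higher and 6.85% lower). Arrays did not overlap for 17 members above and 5 below, against 26.2% of all genes. Besides Mgst1, Hmox1 and Slc7a11, the higher members included Srxn1 by 0.46 ± 0.04, Gpx3 by 0.43 ± 0.06, Gpx7 by 0.41 ± 0.07, Gstt1 by 0.31 ± 0.07, Gstm2 by 0.30 ± 0.07 and Gstk1 by 0.23 ± 0.05. Txnrd1 (0.26), Txnrd2 (0.19) and the mitochondrial dismutase Sod2 (0.24 ± 0.07, adjusted p = 0.0244) were also higher. The Sod2 call was lost without 10 µg/ml replicate 1 (0.17) or 50 µg/ml replicate 1 (0.25) or 3 (0.20). The Gstm2 call was lost without 10 µg/ml replicate 3 (0.24) or 50 µg/ml replicate 2 (0.27) or 3 (0.28). Txnrd1 and Txnrd2 lost theirs in 6 and 4 of the 12 omissions of an array, 10 µg/ml replicates 1 and 3 and 50 µg/ml replicates 1 and 3 among them for both. The lower members were Sod3, Gpx1 (-0.37 ± 0.07), Fth1 (-0.26 ± 0.07) and Glrx (-0.30 ± 0.09). The Fth1 call was lost without 10 µg/ml replicate 2 (-0.18) or 50 µg/ml replicate 1 (-0.23). Nfe2l2 was called higher by 0.22 ± 0.07 (adjusted p = 0.0499) and held its call in 1 of the 12 omissions, that of 10 µg/ml replicate 3. Glrx, with the same adjusted p of 0.0499, lost its call in 8 of the 12, all but vehicle replicate 2, 1 µg/ml replicates 2 and 3 and 50 µg/ml replicate 3.

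Against 1 µg/ml, 14 members were higher and 4 lower, or 40% against 24.9% of all genes (11.5% higher and 13.4% lower), and arrays did not overlap for 15 members above and 6 below, against 40.9% of all genes. The number called was 11 without 1 µg/ml replicate 1. Txnrd2 was higher than at 1 µg/ml by 0.32 ± 0.06 (adjusted p = 0.00164) and Tkt by 0.21 ± 0.05 (adjusted p = 0.0143). The others higher were Mgst1, Hmox1, Srxn1, Gpx3 (0.36), Gstt1 (0.34), Gpx7 (0.31), Gstp1 (0.22), Gsto1 (0.22), Sod2 (0.22), Prdx6 (0.19), Txn2 (0.19) and Ftl1 (0.17). The lower ones were Sod3 (-0.49), Glrx (-0.40), Mgst2 and Gpx1 (-0.22). The call of Txn2 against 1 µg/ml, its single call, was lost in 8 of the 12 omissions of an array. Gpx1 lost its call against 1 µg/ml in 6 of the 12, without vehicle replicate 1, any 1 µg/ml array or 50 µg/ml replicate 2 or 3 (-0.24 to -0.18). Sod2 lost its call without any 1 µg/ml array or 50 µg/ml replicate 3 (0.18 to 0.23), and Ftl1 without 1 µg/ml replicate 1 or 3 or 50 µg/ml replicate 3 (0.15 to 0.17). Gsto1 lost its call without 1 µg/ml replicate 1 or 2 or 50 µg/ml replicate 2 (0.19 to 0.21), and Gstp1 and Prdx6 without 1 µg/ml replicate 1 or 50 µg/ml replicate 2. The repeated quantile normalization, which gives the log2 ratios of all arrays the same spread, ended 10 of the 18 calls. The calls ended were those of Ftl1, Glrx, Txn2, Gpx1, Gpx3, Gpx7, Gstp1, Gsto1, Sod2 and Prdx6. Srxn1, called at both doses, was higher at 50 than at 1 µg/ml by 0.26 ± 0.04 (adjusted p = 0.00136). For Gstm2 the difference between these doses of 0.18 ± 0.07 was not called (95% interval 0.02 to 0.34, adjusted p = 0.0979), nor was that of Gstk1 (95% interval -0.13 to 0.07).

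Other genes of the same pathways were read from lists of 92 measured genes, of which 12 were higher and 10 lower at 50 µg/ml (23.9%, against 17.6% of all genes; median 0.04). Of 28 further glutathione genes 3 rose and 2 fell (17.9%, near the share of all genes). The alpha class transferase Gsta1 rose by 0.63 ± 0.06 (adjusted p = 2.07e-05) and the mu class Gstm7 by 0.37 ± 0.07, while Chac1, which degrades glutathione, fell by 0.59 ± 0.16. Of 21 NRF2 partners and targets outside the members, 3 rose and 1 fell (19%, also near the share of all genes). The epoxide hydrolase Ephx1 rose by 0.33 ± 0.09 and Bach1, a repressor of Hmox1, by 0.28 ± 0.07, whereas the reductase Akr1b8 fell by 0.38 ± 0.08.

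Of 23 thioredoxin, selenoprotein and repair genes 2 rose and 1 fell at 50 µg/ml (13%, against 17.6% of all genes). Txnip, which binds and inhibits thioredoxin, fell by 1.20 ± 0.07, the nucleoredoxin Nxn rose by 0.30 ± 0.05, and the methionine sulfoxide reductase Msra (0.28 ± 0.11) was not called. Of 10 genes of superoxide producing oxidases 4 fell and 2 rose (60%). The falls were those of the phagocyte oxidase, Cybb by 1.07 ± 0.08, Ncf4 by 0.72 ± 0.09, Rac2 by 0.67 ± 0.11 and Ncf1 by 0.43 ± 0.07, in arrays where macrophage markers had a median difference of -1.02. The rises, named after their values were seen, were those of Nox4 (0.58 ± 0.06) and Duox1 (0.28 ± 0.06). Of 10 metal binding genes 2 rose and 2 fell (40%). The metallothioneins Mt1 and Mt2A were at 1.82 ± 0.09 and 1.58 ± 0.10 and the copper protein Cp at -0.54 ± 0.09.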

How the data were processed

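Arrays were summarised by RMA, which corrects background, quantile-normalizes and combines probes, per the submitters' processing notes. Its version is not given in any source at hand. The deposited value is a linear ratio of an array to the probe set's median over the 12 arrays, as judged from the values: the mean of the 6th and 7th ordered log2 values was 0 to within 1e-06. Ratios were converted to log2. Of 27342 probe sets 15097 had 1 gene symbol in the platform annotation, 323 had several and 11922 had none. Probe sets of a gene were averaged, which gave 14324 genes, and a look-up in the GRCr8 gene table changed 0 symbols.

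The linear model (limma 3.58.1, R 4.3.3) used all arrays, with empirical Bayes moderation, 8 residual degrees of freedom and two-sided p-values adjusted over all genes. Exact permutation of such groups cannot reach a p below 0.1. The fit was tested on simulated data with independent noise in each array. That setting lacks the shared deviations between arrays given below, so it does not show how the fit behaves with them. The number of arrays limits the precision, and the median residual SD was 0.08 (log2). Members called in any comparison were named, and the 14 with the smallest adjusted p against the vehicle were given in every array. In the lists of other pathway genes, the 3 with the largest difference at 50 µg/ml were named per list. Members, lists and tests were chosen with earlier results of these data known. Alternatives were a repeated quantile normalization, median centring, robust moderation, array weights, the compared groups alone, single probe sets, the replicate number as a block and each array left out. The repeated normalization was run on the log2 ratios per gene, not on intensities as in RMA. It gives every array the same distribution, although the SD over genes was 0.09 in the vehicle arrays and 0.19 to 0.22 at 50 µg/ml.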

Additional observations from a re-analysis of the deposited data

How the results depend on the processing

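Across 65 calls of a member in a comparison and 19 alternatives, 1052 of 1235 calls kept their direction and threshold, 183 lost the threshold and 0 reversed. Robust moderation, the replicate block, the compared groups alone and the omission of an array from an uncompared group leave a difference unchanged. So do single probe sets, except for Fth1 and Ftl1 among the called members. Median centring moved no array by more than about 0.01, too little to reverse a call. Direction was thus fixed in advance in those alternatives, and the count of 0 reversed says nothing about them. At 50 µg/ml 12 of 18 member calls held under every alternative, at 1 µg/ml 0 of 4. The number of members called at 10 µg/ml, 0 in the main analysis, was 1 (Gstp1) when quantile normalization was repeated and 2 (Gstm2 and Gstp1) with array weights. At 1 µg/ml it was 4, but 10 after the repeated normalization, 11 with array weights, 11 with the compared groups alone and 1 to 8 with one array left out. For 50 against 10 µg/ml it was 17, but 10 after the repeated normalization and 11 with the compared groups alone. For 50 against 1 µg/ml it was 18, but 8 after the repeated normalization and 11 to 19 with one array left out. For 10 against 1 µg/ml it was 8, but 2 with the compared groups alone and 4 to 12 with one array left out. The NRF2 target count at 50 µg/ml was 2 to 4 with one array left out, and the transferase count 5 to 7. With the replicate number as a block, 7 members were called at 1 µg/ml and 19 at 50 µg/ml, and the block ended 5 of the 65 calls: Txnrd2 at 50 µg/ml (0.19, adjusted p = 0.0536), Glrx, Txnrd1 and Txnrd2 for 50 against 10 µg/ml (adjusted p of 0.0667, 0.0544 and 0.0554) and Gpx1 for 50 against 1 µg/ml (adjusted p = 0.0527). Of 18 same-numbered pairs of arrays 6 had deviations correlated above 0.1 over genes, and the numbers were not taken to pair the cultures. These correlations cannot decide whether cultures were paired, because the 3 deviations of a group sum to 0 for each gene. The correlation r ran from -0.23 to 0.43 in same-numbered pairs and from -0.48 to 0.49 in other pairs. The extremes of all pairs joined 10 and 50 µg/ml arrays (-0.48 for 10 replicate 2 with 50 replicate 1, 0.49 for 10 replicate 3 with 50 replicate 1). The main model takes arrays as independent and leaves such shared deviations out. The cause of the shifts in these counts was not tested. Counts over all genes moved too, at 1 µg/ml from 608 to 1179 after the repeated normalization, 1772 with array weights and 1661 with the compared groups alone, and at 50 against 10 µg/ml from 2091 to 1265 after the repeated normalization, 3457 with array weights and 1312 with the compared groups alone. At 10 µg/ml they went from 0 to 39 after the repeated normalization and 90 with array weights, at 50 against 1 µg/ml from 3562 to 2155 after the repeated normalization, and at 10 against 1 µg/ml from 2001 to 3155 with array weights and 697 with the compared groups alone. With one array left out, they ran from 176 to 1282 at 1 µg/ml and from 820 to 2694 for 10 against 1 µg/ml. Signal over background could not be read from ratios, so which members lay near background is unknown.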
